A study of Mus musculus with 11 samples.

Results

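The livers of old C57BL/6J mice were compared with those of young ones by sequencing of DNA captured through its methylation (MBD-seq, affinity capture with a methyl-CpG binding domain protein). The comparison holds 4 of the 11 libraries of the study: 2 from females of 107 days (young replicates 1 and 2) and 2 from females of 711 days (old replicates 1 and 2), an interval of 604 days. These 4 were chosen by strain, sex and age as the labels give them, and the labels alone set the groups. The remaining libraries are 1 C57BL/6J male of 308 days (the mid-age male) and 6 of the inbred strain DBA/2J: 2 young females of 108 days, 2 mid-age females of 341 days, 1 mid-age male of 345 days and 1 old female of 708 days. The mid-age male differs from the other C57BL/6J libraries in sex as well as age, and these cannot be told apart in it. The labels give no treatment, no genetic alteration and no housing or litter, and do not say whether a library came from 1 animal. P-values therefore measure the spread between these libraries, and whole liver mixes hepatocytes with blood, endothelial, stellate and bile duct cells. A change in methylation and a change in the mix of cells cannot be told apart in such DNA.

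In mammals most cytosines that precede a guanine (CpG sites) carry a methyl group, while dense clusters of CpGs at gene starts, the CpG islands, mostly do not. With age, some CpG islands and CpG-dense stretches are known to gain methylation in many tissues, and CpG-poor DNA between genes tends to lose it. The capturing protein binds methylated CpGs, so a fragment is recovered more readily the more methylated CpGs it holds, and a read count reflects both methylation and CpG number. The unit of measurement was a bin of 500 bp, and the deposited table holds 466039 of them with their read counts and a relative methylation score from 0 to 1, which corrects counts for CpG number and is not a share of methylated cytosines.

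The sequences that the results turn on are stretches of 120 bases, read from the plus strand of GRCm38, the assembly whose CpG numbers match those of the table. Every CpG is in capitals, because methylated CpGs are what the protein binds. The first 5 come from bins with more reads in old livers, and each is the window of its bin with the most CpGs. They lie at chr2:13010361-13010480 in a coding exon of C1ql3 (11 CpGs), at chr17:74047610-74047729 in the first bin of Srd5a2 (10 CpGs), at chr10:84760085-84760204 in an intron of Rfx4 (14 CpGs), at chr17:46628759-46628878 in an intron of Ptk7 (13 CpGs) and at chr8:71686001-71686120 in a coding exon of Jak3 (10 CpGs).
C1ql3: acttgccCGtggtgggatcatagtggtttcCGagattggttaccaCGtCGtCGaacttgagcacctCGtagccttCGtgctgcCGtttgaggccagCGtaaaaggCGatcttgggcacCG
Srd5a2: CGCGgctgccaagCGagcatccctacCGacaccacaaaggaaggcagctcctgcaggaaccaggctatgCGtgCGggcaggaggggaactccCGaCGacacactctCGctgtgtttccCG
Rfx4: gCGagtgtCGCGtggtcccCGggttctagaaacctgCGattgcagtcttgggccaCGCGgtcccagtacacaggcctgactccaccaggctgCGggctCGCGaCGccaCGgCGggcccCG
Ptk7: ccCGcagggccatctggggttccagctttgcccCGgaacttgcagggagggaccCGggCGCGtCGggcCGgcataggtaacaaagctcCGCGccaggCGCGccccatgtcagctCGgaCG
Jak3: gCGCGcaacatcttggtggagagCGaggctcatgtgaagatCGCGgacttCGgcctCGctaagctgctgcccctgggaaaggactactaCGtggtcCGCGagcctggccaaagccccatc

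The other 3 come from bins with fewer reads in old livers, at chr10:80859236-80859355 in an intron of Sppl2b (7 CpGs), at chr10:70130792-70130911 in an intron of Ccdc6 (5 CpGs) and at chr16:90763257-90763376 in an intron of Urb1 (6 CpGs). Set beside the first 5, each of these windows holds fewer CpGs.
Sppl2b: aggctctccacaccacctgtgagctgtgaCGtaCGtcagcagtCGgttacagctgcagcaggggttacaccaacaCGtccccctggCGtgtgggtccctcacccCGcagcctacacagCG
Ccdc6: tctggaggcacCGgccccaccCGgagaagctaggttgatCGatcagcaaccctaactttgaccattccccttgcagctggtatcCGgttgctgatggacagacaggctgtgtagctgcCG
Urb1: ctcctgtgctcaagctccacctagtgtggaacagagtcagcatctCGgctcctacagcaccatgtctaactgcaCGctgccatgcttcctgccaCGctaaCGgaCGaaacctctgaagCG

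The 4 libraries held 7193180 and 7076030 reads (young) and 8065141 and 8343722 reads (old), with a median of 14 to 15 reads per bin, so that counting error was large at single bins. Young replicate 2 stood apart from the others. In bins with more than 20 CpGs its mean count was 1.21 times that of all its bins, against 1.69 in young replicate 1, 1.73 and 2.07 in the old libraries and 2.16 in the mid-age male. The old libraries lay 0.45 above the young ones on this ratio (exact permutation test, two-sided, p = 0.333, the smallest that 2 against 2 allows), and in bins with more than 30 CpGs the gap was 0.545 (p = 0.333, same exact test). Across bins, the Spearman correlation of counts was 0.456 between the young libraries and 0.651 between the old ones, a description over bins that share depth and CpG number. The strain label of young replicate 2 held: all 481 bins without a read in any DBA/2J library and with at least 10 in each of the other C57BL/6J libraries had a read in it. Scaled to library size (CPM, read counts relative to the library total), it gave 960 CPM there, against 1260 to 1540 in the other C57BL/6J libraries. In the 16 bins without a read in the other C57BL/6J libraries, young replicate 2 had 22 reads. This was 3.11 CPM, against 24.5 to 33.4 in the DBA/2J libraries. The share of mitochondrial reads was 0.0321% in young replicate 2 and 0.0147% to 0.0149% in the other 3 libraries.

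**Figure D1:**
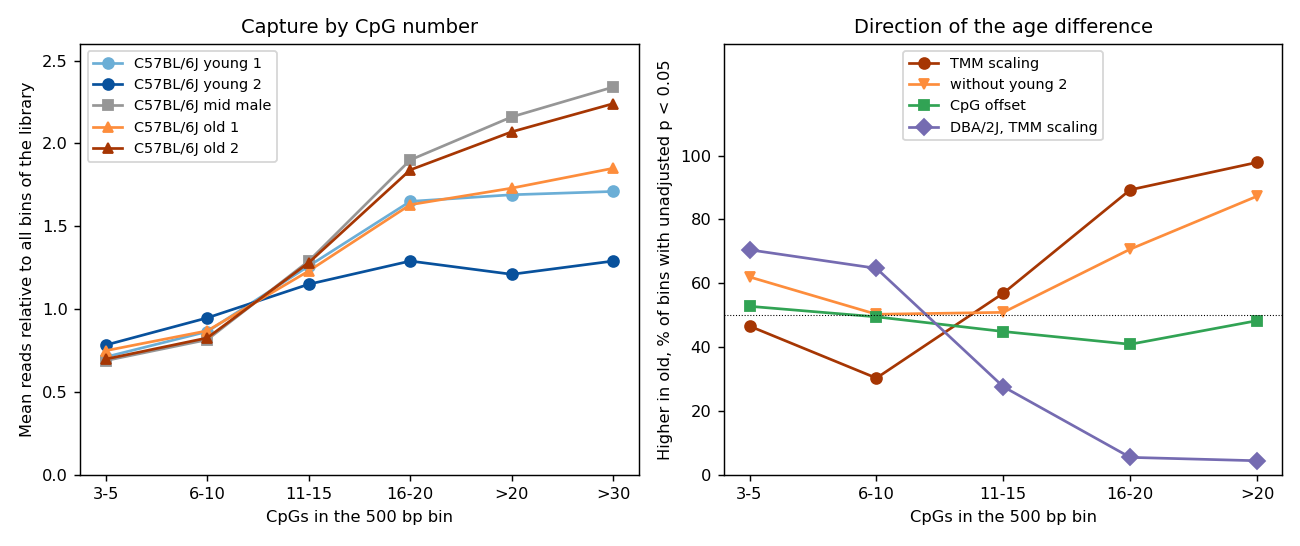
Left: mean reads in bins of each CpG class relative to all bins of the same C57BL/6J library (no unit; 1 line per library). Right: of the bins with an unadjusted p under 0.05, the percentage with more reads in old livers, by CpG class, for C57BL/6J with the usual scaling, without young replicate 2 and with a scaling by CpG number, and for DBA/2J. In bins over 20 CpGs young replicate 2 lies lowest at 1.21, and the percentage is 97.9 with the usual scaling, 87.3 without that library and 48.3 with the scaling by CpG number.

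The direction of the age difference followed CpG density, and that pattern moved with the capture. Of 408033 bins with enough reads to test, 12000 (2.94%) had more reads in old livers and 14032 (3.44%) had fewer at an unadjusted p under 0.05 in edgeR's quasi-likelihood test. Bins with more reads made up 97.9% of such bins over 20 CpGs, 89.3% at 16 to 20 CpGs, 56.9% at 11 to 15, 30.3% at 6 to 10 and 46.6% at 3 to 5. Without young replicate 2 the shares in the same order were 87.3%, 70.7%, 50.9%, 50.3% and 62.0%. Another scaling, which sets each library's counts equal within each CpG number (the CpG offset) and so also removes any true change shared by all bins of 1 density, gave 48.3%, 40.9%, 44.9%, 49.5% and 52.8%. The same comparison in DBA/2J, where the old library had the lower capture (1.48 against 1.90 and 1.98 over 20 CpGs), ran the other way, with 4.4% over 20 CpGs and 64.7% at 6 to 10. The mean relative methylation score over 20 CpGs was 0.486 in each young C57BL/6J library and 0.523 and 0.532 in the old ones. At 3 to 5 CpGs it was 0.717 and 0.713 against 0.738 and 0.736. In DBA/2J the score over 20 CpGs was 0.504 and 0.482 against 0.502. Of 466039 bins tested by limma, 18084 had a higher score in old C57BL/6J livers and 5569 a lower one at an unadjusted p under 0.05. By the adjusted test 0 passed. The part of the capture in this pattern was measured by these alternatives and the score only, and a gain of methylation shared by all dense bins cannot be told apart from it.

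At the level of single bins 1 passed the adjusted test. It lies in a coding exon of C1ql3, at chr2:13010001-13010500, with 35 CpGs. C1ql3 encodes a secreted C1q-like protein of synapses. Its reads were 6 and 1 in the young libraries and 34 and 34 in the old ones, and 4 in the mid-age male; both old libraries lie far above all others. In CPM the levels were 0.834 and 0.137 against 4.2 and 4.19, a mean of 0.486 ± 0.493 (SD, n = 2) against 4.2. The relative methylation score was 0.31 and 0.11 in the young and 0.52 and 0.51 in the old libraries. The log2 change was 3.05 ± 0.52 (SE), with an adjusted p of 0.0283 by edgeR's quasi-likelihood test with Benjamini-Hochberg adjustment over all bins, where 0.000245% of bins were called higher and 0.0% lower. The adjusted p was 0.618 without young replicate 2 and 0.4 with the CpG offset, both with the same direction. The DBA/2J libraries gave 3 and 0 reads when young and 23 when old, with 15 and 15 in the mid-age females and 1 in the mid-age male.

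Beside C1ql3, the bins with the smallest p and groups that did not overlap were mostly CpG-dense. The first 12 with more reads in old livers had a median of 24.0 CpGs (3 to 35) against 9.0 over all tested bins. Of these, 7 lay in exons, as did 113936 of all 408033 tested bins. They were chosen by their p, so their size is a description, and apart from C1ql3 none passed the adjusted test; the adjusted p of the other 11 was 0.106 to 0.496. All 12 kept their direction without young replicate 2, which their choice by groups that did not overlap all but fixes. The smallest adjusted p among them with the CpG offset was 0.37.

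Srd5a2, a steroid 5-alpha-reductase that makes dihydrotestosterone and reduces steroids in the liver, came next. Its bin at chr17:74047501-74048000 holds the gene's start and 31 CpGs, and had 1 and 0 reads in young livers and 25 and 16 in old ones. The mid-age male had 1 read. The ratio of old to young was 36.6, with a 95% counting interval of 6.21 to 1480 because the young libraries hold a single read. The log2 change was 4.87 ± 0.932 (edgeR's quasi-likelihood test, adjusted p = 0.106). In DBA/2J the young females had 0 and 0 reads, the mid-age females 19 and 12, the mid-age male 2 and the old female 22. In both strains the males lay with the young females at this bin.

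Rfx4, a transcription factor of the developing brain and of cilia, had 4 adjoining bins from position 84759001 to 84761000 of chromosome 10, in an intron, with 9 and 10 reads in young and 75 and 71 in old livers. The run was picked out after its values were seen. Its bin at chr10:84760001-84760500 has 33 CpGs and had 0 and 4 against 17 and 28 reads (log2 change 3.22 ± 0.678, adjusted p = 0.286 by edgeR's quasi-likelihood test). In the mid-age male the whole run had 2 reads. DBA/2J showed 13 and 12 reads in the young females, 90 and 52 in the mid-age females, 32 in the mid-age male and 59 in the old female, so that the old and mid-age females lay above the young in each strain that has them.

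Ptk7, a catalytically inactive receptor kinase of planar cell polarity, had 3 and 5 against 23 and 26 reads at chr17:46628501-46629000, an intronic bin 754 bp from its start with 30 CpGs. The mid-age male lay between the groups with 16 reads. The log2 change was 2.39 ± 0.542 (adjusted p = 0.488 by edgeR's quasi-likelihood test), and DBA/2J had 6 and 8 reads when young and 29 when old. Hhipl1, a hedgehog-interacting-like protein, had 6 and 3 against 33 and 20 reads in a coding exon of 22 CpGs.

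For none of the remaining bins of the first 12 did the age change differ between the strains by the adjusted test (adjusted p 0.264 to 0.886 by edgeR's quasi-likelihood test). In Jak3, the kinase that signals for cytokine receptors with the common gamma chain in lymphocytes, a coding-exon bin at chr8:71686001-71686500 had 11 and 11 against 43 and 46 reads, with 16 in the mid-age male. Its log2 change was 1.81 ± 0.402 in C57BL/6J and 0.34 in DBA/2J. Nsd3, a histone H3 lysine methyltransferase, had 14 and 14 against 52 and 53 reads in a coding exon of 12 CpGs, with a change of 1.71 ± 0.391 in C57BL/6J and -0.02 in DBA/2J. Il20rb, a subunit of the interleukin-20 receptor, had 5 and 3 against 21 and 27 reads, and the mid-age male had 26. At Eps8l1, an adaptor that links receptor signalling to actin, the bin at chr7:4471001-4471500 had 7 and 6 against 41 and 24 reads, while the DBA/2J libraries at this bin had 0 reads save 1 in the old female. Nrp2, a receptor for semaphorins and vascular growth factors, had 1 and 5 against 28 and 16 reads. Nrg2, a ligand of ErbB receptors, had 4 and 2 against 14 and 31 reads in a bin of 3 CpGs. The bin of Naip6, an inflammasome sensor, had 4 and 8 against 25 and 40 reads but lies 95.2% in repeats and in a family of near-identical genes, so its reads cannot be placed with certainty.

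**Figure D2:**
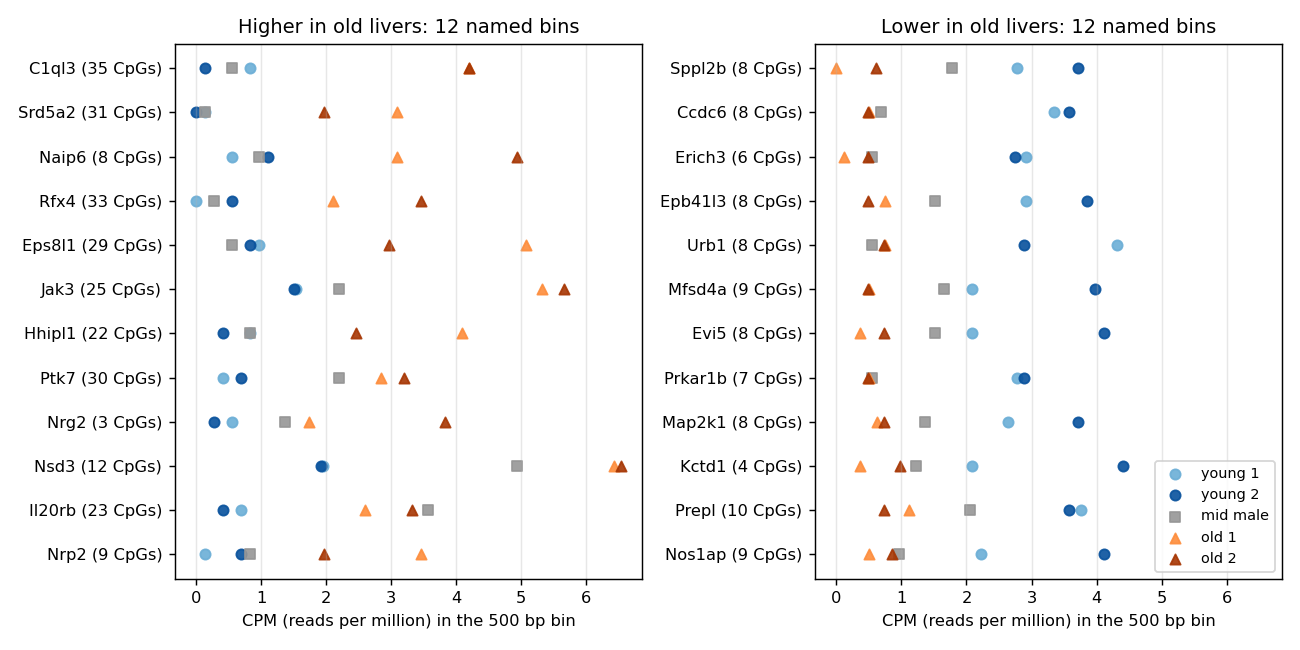
CPM (x axis) in the first 12 bins with more and the first 12 with fewer reads in old C57BL/6J livers, 1 row per bin with its gene and CpG number, and 1 point per library. Old libraries (triangles) lie on one side of young libraries (circles) in every row because the rows were chosen so; the mid-age male (square) lies between the groups in 5 bins on the left and 11 on the right.

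The first 12 bins with fewer reads in old livers were less CpG-dense than the first 12 higher ones and near the tested bins as a whole. Their median CpG number was 8.0 (4 to 10), against 9.0 over all tested bins. Of the 12, 2 lay in exons and 10 in introns, and of all 408033 tested bins 113936 lay in exons. The mid-age male lay between the groups in 11, where among the higher bins it did so in 5. How often it did so over all bins is not given here. None of the 12 passed the adjusted test. Sppl2b, an intramembrane protease of the endosome and lysosome, led with 20 and 27 reads in young and 0 and 5 in old livers at chr10:80859001-80859500, and 13 in the mid-age male. Its log2 change was -3.36 ± 0.617 (adjusted p = 0.0837 by edgeR's quasi-likelihood test), and the methylation score was 0.65 and 0.7 against 0.0 and 0.5. Ccdc6, a coiled-coil protein known as a fusion partner of RET, had 24 and 26 against 4 and 4 reads at chr10:70130501-70131000 (-2.80 ± 0.526, adjusted p = 0.0996 by the same test). The mid-age male, with 5 reads, lay close to the old libraries.

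Further down the same list, Erich3 had 21 and 20 against 1 and 4 reads, and Epb41l3, a membrane-cytoskeleton linker, 21 and 28 against 6 and 4. Urb1, a factor of ribosome assembly, had 31 and 21 against 6 and 6 reads at chr16:90763001-90763500. Prkar1b, a regulatory subunit of protein kinase A, had 20 and 21 against 4 and 4. Map2k1, the kinase MEK1, had 19 and 27 against 5 and 6 reads. Prepl, a peptidase-like protein, had 27 and 26 against 9 and 6, with 15 in the mid-age male. The other 4 (Mfsd4a, Evi5, Kctd1 and Nos1ap) had young libraries that differed more, with 15 to 16 reads in young replicate 1 and 29 to 32 in young replicate 2. In DBA/2J, 2 of the 12 bins had fewer reads in the old female than in the young ones, against 8 of 12 for the higher bins, among them the nearly empty bin of Eps8l1. All 12 lower bins kept their direction without young replicate 2, which again follows almost wholly from their choice by groups that did not overlap.

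A bin of Igfbp7, the insulin-like growth factor binding protein associated with senescent cells, shows what 1 library can do. At chr5:77351501-77352000 the young libraries had 7 and 128 reads, the old ones 15 and 14, and the mid-age male 6. The log2 change was -2.41 ± 0.486 (adjusted p = 0.236 by edgeR's quasi-likelihood test) and 0.86 without young replicate 2, while leaving out young replicate 1 gave an adjusted p of 6.6e-12. The value of that bin rests on young replicate 2.

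Reads summed over all bins within 2 kb of a gene's start reduced the counting error, and 11154 promoters could be tested. Here 5 (0.0448%) rose and 1 (0.00897%) fell with age at an adjusted p under 0.05, and 414 (3.71%) were higher and 493 (4.42%) lower at an unadjusted p under 0.05. No promoter passed with the CpG offset, and 252 were higher and 589 lower at the unadjusted threshold. The count of promoters that passed was 73 without young replicate 1, 2 without young replicate 2, 0 without old replicate 1 and 1 without old replicate 2, so it depends on single libraries.

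C1ql3 and Srd5a2 rose at their promoters as well. C1ql3 had 12 and 4 reads in young and 60 and 49 in old livers (log2 change 2.59 ± 0.465, adjusted p = 0.00131 by edgeR's quasi-likelihood test). Its change with the CpG offset was 2.27 and its adjusted p 0.0592, and in DBA/2J the change was 2.63. Srd5a2 had 6 and 11 against 50 and 45 reads (2.31 ± 0.468, adjusted p = 0.0124). Without young replicate 2 the adjusted p was 0.029 for Srd5a2, and the C1ql3 promoter lost its call. Both lost it by DESeq2 and without old replicate 1, and Srd5a2 also without old replicate 2 (adjusted p = 0.0907) and with the CpG offset. In DBA/2J the Srd5a2 promoter changed by 2.48, with an adjusted p of 0.00936 by the same test in the fit of all 11 libraries. The mid-age C57BL/6J male had 7 reads at the C1ql3 promoter and 5 at the Srd5a2 promoter, both with the young females.

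For the other promoters that passed, the difference between the strains in the age change did not pass its test, with adjusted p of 0.0813 to 0.373 by edgeR's quasi-likelihood test. Prdx6b, a testis-expressed relative of the peroxiredoxin gene Prdx6, had 148 and 104 against 309 and 294 reads (1.1 ± 0.233, adjusted p = 0.0215 by edgeR's quasi-likelihood test) and a change of -0.30 in DBA/2J. As a close copy of Prdx6 its reads are uncertain. The unnamed gene models Gm2670 (33 and 25 against 94 and 85 reads) and Gm15494 (69 and 49 against 151 and 144) lie over Wnt5a and Eps8l1, and Gm48802 fell, from 38 and 26 to 8 and 8 reads (-2.14 ± 0.495, adjusted p = 0.0498). Short of the threshold, Cldnd1 had 48 and 49 against 103 and 139 reads, Ptk7 17 and 32 against 73 and 74, and Stap2, a signalling adaptor, 8 and 2 against 20 and 30.

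Among promoters with fewer reads in old livers, Ren1, which encodes the protease renin, had 66 and 67 against 29 and 30 reads (-1.33 ± 0.336, adjusted p = 0.144 by edgeR's quasi-likelihood test), with 29 in the mid-age male. E2f6, a repressor of the E2F family, had 45 and 36 against 18 and 9. Pea15a, an inhibitor of death-receptor signalling, had 24 and 17 against 6 and 4 reads, Pts, an enzyme of tetrahydrobiopterin synthesis, 22 and 27 against 11 and 4, and Cfap221, a protein of cilia, 18 and 17 against 5 and 3. Hopx, a homeodomain-only protein, had 53 and 126 against 44 and 52 reads, and its change of -1.06 became -0.30 without young replicate 2.

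Over whole gene bodies, from start to end of each annotated gene, 21239 genes could be tested, and 52 (0.245%) rose while 7 (0.033%) fell with age at an adjusted p under 0.05. At an unadjusted p under 0.05 the numbers were 1014 (4.77%) and 855 (4.03%). Overlapping genes share reads: the 52 lie in 24 separate loci and the 7 in 7. The balance of directions moved with the scaling, with 16 higher and 19 lower under the CpG offset and 46 and 12 under total counts alone. Of the 59 genes called, 21 (14 higher, 7 lower) were called with the CpG offset, 36 without young replicate 2, 44 without young replicate 1, 45 without old replicate 1 and 13 without old replicate 2, and the number of all calls without young replicate 1 was 349. With bins in exons left out, 48 of the 59 could still be tested and 5 were called.

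Jak3 gave the smallest p. Over its gene body (chr8:71676296-71690575) the reads were 275 and 250 in young and 585 and 553 in old livers, and 339 in the mid-age male. This is 36.3 ± 2.76 CPM in young and 70.2 ± 3.01 in old livers (SD, n = 2 each), and the groups lay far apart. The log2 change was 0.92 ± 0.129 (adjusted p = 1.6e-04 by edgeR's quasi-likelihood test) and 0.67 with the CpG offset (adjusted p = 2.5e-04). The call was kept in 13 of 14 alternatives and lost with exon bins left out. Within the gene, 6 adjoining bins from 71684001 to 71687000, with 139 CpGs, had 95 and 86 against 249 and 281 reads, a run picked out after its values were seen. Young DBA/2J livers had 610 and 571 reads over Jak3 and the old one 549, so that young and old DBA/2J livers alike lay near the level of old C57BL/6J livers. The difference between the strains in the age change was 1.05 ± 0.167 (adjusted p = 0.00111 by edgeR's quasi-likelihood test), and 0.56 with the CpG offset (adjusted p = 0.322).

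**Figure D3:**
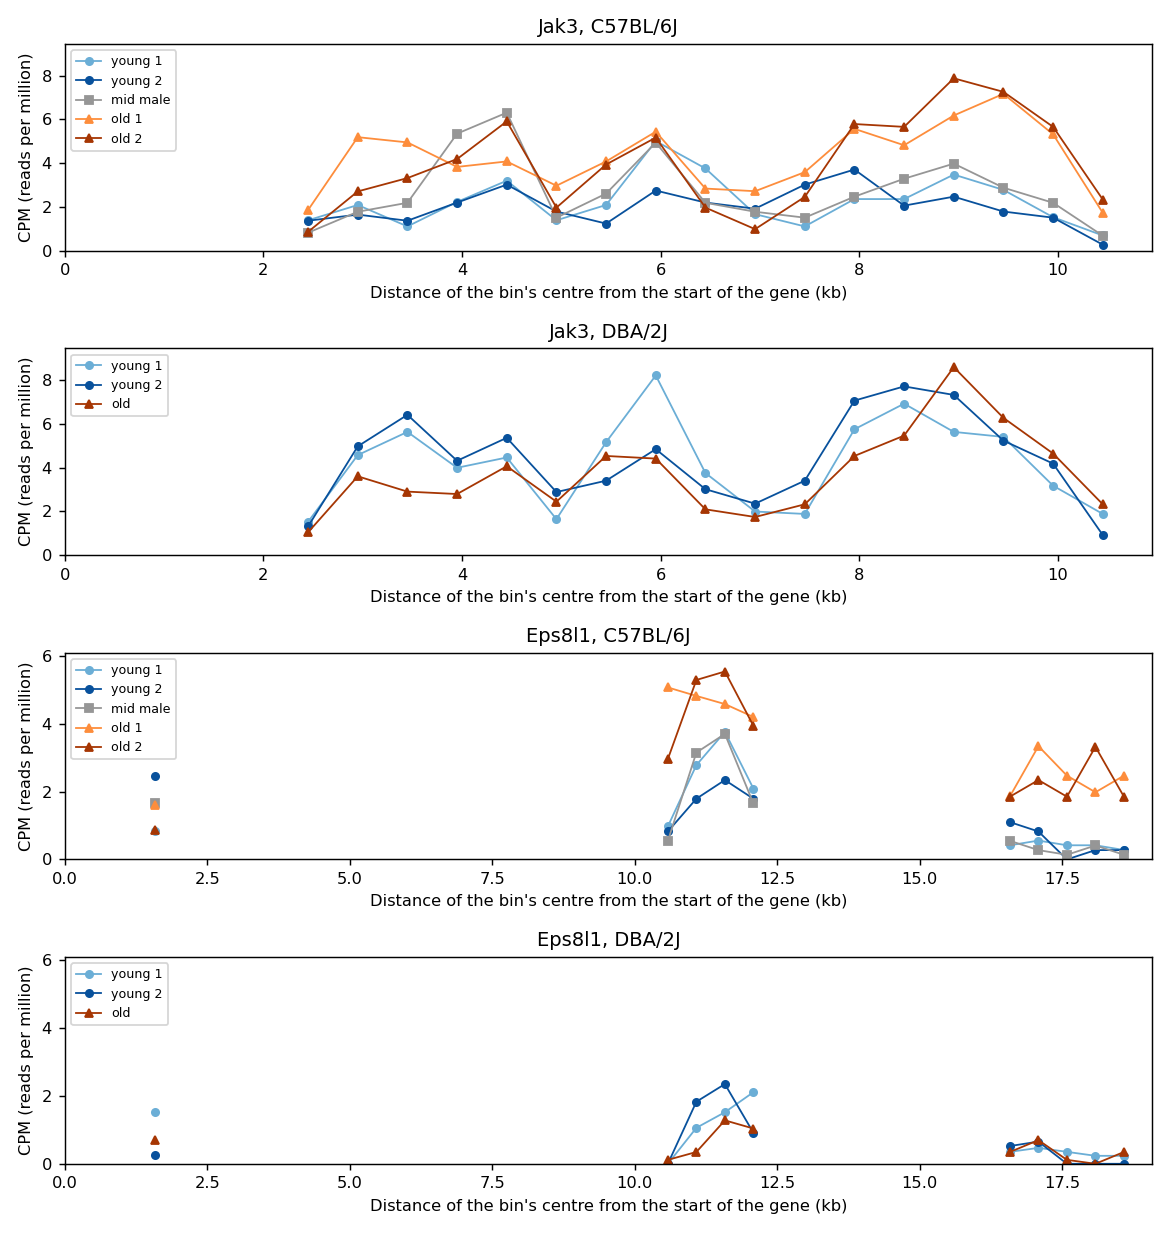
CPM in each 500 bp bin (y axis) against its distance from the start of Jak3 or Eps8l1 (x axis, kb), for C57BL/6J and DBA/2J, 1 line per library; lines break where the table holds no adjoining bin. Old C57BL/6J libraries lie above the young ones over the 6 bins of Jak3 with 249 and 281 against 95 and 86 reads, and over the last bins of Eps8l1.

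Eps8l1 rose over its whole body from 90 and 85 to 262 and 242 reads, with 89 in the mid-age male. The log2 change was 1.33 ± 0.195 (adjusted p = 2.4e-04 by edgeR's quasi-likelihood test), was called in all 13 alternatives that could be fitted, and differed from that in DBA/2J (-0.46) by 1.8 with an adjusted p of 0.0272. That difference, unlike the change itself, missed the threshold with the CpG offset and when 5 of the 6 young or old C57BL/6J and young DBA/2J libraries were left out, each on its own. A run of 4 bins near its end, from 4477501 to 4479500 of chromosome 7, had 12 and 10 against 83 and 76 reads and 7 in the mid-age male. Atp11a, a phospholipid flippase of the plasma membrane, rose by a smaller amount with far more reads, from 1706 and 1631 to 2549 and 2648 (0.45 ± 0.0711, adjusted p = 4.1e-04), and kept its call in all 15 alternatives. Its change in DBA/2J was 0.24. At its promoter the reads were 42 and 23 against 31 and 31, so the gain lay over the body of the gene.

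Several other genes rose over their bodies and kept the call under the CpG offset, but most of them lost it without 1 of the libraries. Without young replicate 2 the adjusted p by edgeR's quasi-likelihood test was 0.068 for C1ql3, 0.0954 for Nme5, 0.371 for Drosha, 0.155 for Cldnd1, 0.34 for Cul9 and 0.528 for Hhipl1, and without old replicate 2 it was 0.116 for Bdnf and 0.229 for Naip6. Dnajc10 kept its call without each library in turn, and so did Prdx6b. Dnajc10, a chaperone of the endoplasmic reticulum that reduces disulfides, had 237 and 240 against 477 and 460 reads (0.78 ± 0.138, adjusted p = 0.00166 by edgeR's quasi-likelihood test), with 200 in the mid-age male. Bdnf, the brain-derived neurotrophic factor, had 106 and 88 against 223 and 271 (1.15 ± 0.195, adjusted p = 0.001), with 166 in the mid-age male. Prdx6b had the same reads as at its promoter and an adjusted p of 0.001. The body of C1ql3 had 18 and 10 against 75 and 55 reads (2.02 ± 0.393, adjusted p = 0.00755), and Nme5, a nucleoside diphosphate kinase-like protein of sperm and cilia, 16 and 14 against 50 and 68 (1.77 ± 0.389, adjusted p = 0.0244). Drosha, the nuclear ribonuclease that cuts primary microRNAs, rose by 0.29 ± 0.067 with 2554 and 2314 against 3384 and 3420 reads. Cldnd1, Cul9 and Hhipl1 behaved alike in this respect, with changes of 0.77, 0.38 and 0.92, and so did Naip6 (1.44), whose place in a gene family leaves its reads uncertain.

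Another group rose with the usual scaling and missed the threshold under the CpG offset. Wnt5a, a ligand of non-canonical Wnt signalling, had 143 and 89 against 245 and 271 reads (0.96 ± 0.195, adjusted p = 0.0117 by edgeR's quasi-likelihood test, 0.0512 with the offset). Fam50b, an imprinted gene in some mammals, had 119 and 99 against 208 and 256 reads and an adjusted p of 0.149 with the offset. Cul7, a scaffold of ubiquitin ligases, rose by 0.47, Zbtb8b, a zinc finger protein, by 0.68, Mapk15, an atypical MAP kinase, by 1.20, Dhx38, a splicing helicase, by 0.41 and Tmem267, a membrane protein, by 0.49. The ribosomal-like model Gm26917, whose sequence is present in many copies, rose by 0.33 and went to -0.15 with the offset.

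The protocadherin clusters held the largest block of calls. Protocadherins are adhesion proteins whose alpha and gamma genes lie in tandem on chromosome 18, each with its own variable first exon, and the genes overlap in the annotation because they share constant last exons. Of the 52 genes that rose, 27 lie in 1 locus from 36930184 to 37841873 of chromosome 18, among them 9 Pcdha and 15 Pcdhg genes. The gene model that led the locus had 4581 and 4576 reads in young and 6581 and 6952 in old livers, a log2 change of 0.37 ± 0.0565 (adjusted p = 3.8e-04 by edgeR's quasi-likelihood test), with 6598 in the mid-age male. In DBA/2J the change was 0.01. With the CpG offset the change was 0.15 (adjusted p = 0.323) and 0 Pcdh genes were called, as with exon bins left out. Leaving out single libraries, 23 were called without young replicate 2, 13 without young replicate 1, 20 without old replicate 1 and 2 without old replicate 2. At their promoters, 55 of the 58 listed protocadherins could be tested and 53 had more reads in old livers. Their median change was 0.37 against -0.01 over all promoters. At an unadjusted p under 0.05, 13 were higher and 0 lower (3.71% and 4.42% over all promoters), and none passed the adjusted test. Pcdhga6 had 45 and 35 against 92 and 73 reads (0.88 ± 0.308), and Pcdha12 80 and 88 against 154 and 144. The median of these promoters was 0.10 with the CpG offset, where 34 of the 55 were above 0, and 0.48 without young replicate 2.

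The 7 genes that fell over their bodies kept their call under the CpG offset, while 2 of them kept it without young replicate 2 and 0 without old replicate 2. Cnpy3, a chaperone partner for Toll-like receptors, had 75 and 95 against 39 and 27 reads and 53 in the mid-age male (-1.55 ± 0.303, adjusted p = 0.00776 by edgeR's quasi-likelihood test, 0.0761 without young replicate 2). Etv6, a transcriptional repressor of blood cell development, fell by 0.38 on the log2 scale, from 1901 and 1886 to 1783 and 1526 reads in libraries where the old ones were the deeper (adjusted p = 0.0136 by the same test), and kept its call in 14 of 15 alternatives. Gfra1, a receptor for glial-derived neurotrophic factors, had 1304 and 1315 against 1196 and 1136 reads (-0.36 ± 0.0828). Ppp2r3a, a regulatory subunit of protein phosphatase 2A, had 69 and 93 against 39 and 34 (-1.34 ± 0.299), and Cyren, a regulator of DNA end joining, 54 and 76 against 28 and 27. The mid-age male lay at or beyond the old females in 4 of these 7 loci and between the groups in 3. In DBA/2J none of the 7 had an adjusted p under 0.05, and their median change was -0.10 against -1.34 in C57BL/6J. They were picked by their p in C57BL/6J, which favours large changes there. Of the 7, 0 passed the test of the difference between the strains.

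The same genes were then set against DBA/2J, with a test of the difference between the strains. In the 24 loci that rose, the lead gene's median change was 0.84 in C57BL/6J and -0.07 in DBA/2J, where 9 of 24 were above 0. The loci and their lead genes were picked by p in the same C57BL/6J libraries. That choice favours large changes in C57BL/6J and not in DBA/2J, so the 2 medians are a description. The DBA/2J comparison has 1 old library against 2 young ones, and its old library had the lower capture of dense bins, the reverse of C57BL/6J. Over all 21789 gene bodies in the fit of all 11 libraries, 88 (0.404%) differed between the strains in their age change, and so did 10 (0.0824%) of 12140 promoters and 1 (0.000215%) of 466039 bins. The lead gene of 10 of the 24 loci was among the 88. The test includes the C57BL/6J libraries that picked these genes, so this number follows in part from their choice. With the CpG offset 10 gene bodies differed, and 36 without C57BL/6J young replicate 2.

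**Figure D4:**
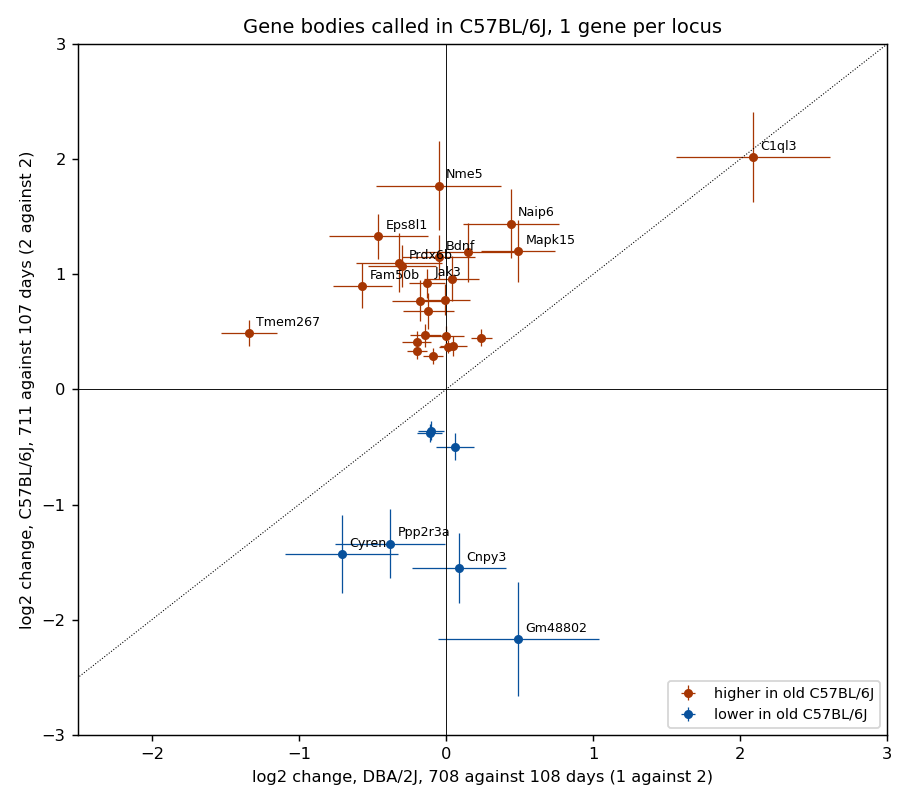
Log2 change with age in C57BL/6J (y axis) and DBA/2J (x axis) over the gene bodies that passed the adjusted test in C57BL/6J, 1 gene for each of 24 loci that rose and 7 that fell, with SE bars; the dotted line marks equal change. C1ql3 lies on that line with 2.02 and 2.09, and Jak3 (0.92 and -0.13) and Eps8l1 (1.33 and -0.46) lie above it.

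The gene lists bear on liver function. They were chosen with earlier results of these data known, so they are described by counts and medians beside those of all promoters (49.2% above 0, median -0.01). At an unadjusted p under 0.05, 3.71% of all promoters were higher and 4.42% lower. Few promoters of liver genes held enough reads to test. Among genes of drug and toxin metabolism 11 of 69 promoters were tested, 3 had more reads in old livers, and the median was -0.48, with 1 higher and 3 lower at an unadjusted p under 0.05. Nr1i2, the nuclear receptor PXR that senses drugs, had 8 and 10 against 30 and 27 reads (1.49 ± 0.49, adjusted p = 0.297 by edgeR's quasi-likelihood test), and Gstm6, a glutathione transferase, 31 and 27 against 19 and 10. Ugt1a1, which conjugates bilirubin, had 77 and 125 against 72 and 67, a change of -0.70 that was -0.30 without young replicate 2. Among genes of lipid and bile acid metabolism 20 of 66 were tested with a median of -0.28, and 0 were higher and 2 lower. Over gene bodies, where more members held enough reads, these lists looked different. Of all gene bodies 49.5% were above 0, and 4.77% were higher and 4.03% lower at an unadjusted p under 0.05. Of the lipid and bile acid list 58 were tested with a median of 0.0, 4 higher and 5 lower at an unadjusted p under 0.05, and of the drug and toxin list 36 with a median of -0.08, 2 higher and 4 lower. Fasn, the fatty acid synthase, had 327 and 344 against 488 and 517 reads over its body, and Srebf1, a master regulator of lipid synthesis, 38 and 36 against 75 and 82, both picked out after their values were seen. At its promoter Acaca, the rate-limiting enzyme of fatty acid synthesis, had 15 and 27 against 8 and 10 reads (-1.37 ± 0.509, adjusted p = 0.381), and Lpin1, a phosphatidate phosphatase, 14 and 15 against 7 and 7. None of these passed the adjusted test.

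Genes of DNA methylation and Polycomb showed no shared direction over both levels. Of 49 listed genes 18 were tested at the promoter, 3 were above 0, and the median was -0.15, with 1 higher and 2 lower at an unadjusted p under 0.05. Over gene bodies 42 were tested, 22 were above 0 (49.5% over all gene bodies), and the median was 0.03, with 3 higher and 1 lower. At its promoter Dnmt3a, the de novo DNA methyltransferase, had 23 and 38 against 11 and 11 reads and 3 in the mid-age male (-1.62 ± 0.475, unadjusted p = 8.2e-04 and adjusted p = 0.203 by edgeR's quasi-likelihood test). Uhrf1, which recruits the maintenance methyltransferase, had 13 and 11 against 4 and 4. Cbx7, a Polycomb reader, had 200 and 144 against 269 and 324 reads, a change of 0.62 that was 0.41 without young replicate 2. No member passed the adjusted test.

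Of imprinted genes, whose parental alleles differ in methylation, 30 of 60 promoters were tested, and 27 were above 0, or 19 with the CpG offset. At an unadjusted p under 0.05, 8 were higher and 0 lower (3.71% and 4.42% over all promoters). The median was 0.43, but 0.09 with the CpG offset and 0.19 without young replicate 2. Gnas had 195 and 114 against 229 and 282 reads, and young replicate 2 was the lowest library at each of Gnas, Nespas and Kcnq1ot1. Of 177 developmental transcription factors, known for islands that gain methylation with age, 12 promoters had enough reads, with a median of 0.07 and 1 higher. That was Hoxa5, a homeobox factor, with 37 and 45 against 55 and 106 reads.

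Genes of hepatocyte proteins (11 of 56 tested) had a median of 0.01, with 1 higher and 1 lower: Apoa5, an activator of triglyceride clearance, had 9 and 6 against 12 and 40 reads, and Apoe, the lipoprotein ligand, 32 and 10 against 11 and 11. For other lists the median was -0.01 for insulin and growth factor signalling (12 of 43 tested), -0.06 for the circadian clock (4 of 23), -0.05 for senescence and tumour suppressors (11 of 51) and 0.22 for genes of published age clocks (3 of 9). At an unadjusted p under 0.05 these lists held 1 higher, Igfbp1, a binding protein of insulin-like growth factors (18 and 9 against 24 and 36 reads), and 1 lower, Dlc1, a tumour suppressor (34 and 25 against 10 and 24). Genes picked for age effects across the series (9 of 11 tested) had a median of -0.06, with C1ql3 and Srd5a2 called, and are not independent of these libraries. Of the most abundant liver transcripts 1 of 8 promoters was tested, that of Apoe.

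Marker genes of other liver cells give the level of methylation at genes that differ between cell types. Summed over 23 promoters, lymphocyte markers had 158 and 157 CPM in young and 151 and 162 in old livers. Kupffer and myeloid markers had 73.0 and 70.1 against 62.8 and 62.8 over 18 promoters, endothelial, stellate and duct markers 52.7 and 58.2 against 51.0 and 55.2 over 13, and hepatocyte genes 50.3 and 37.2 against 37.0 and 47.9 over 19. The groups overlapped except for the myeloid list, where both old libraries lay below both young ones. In the mean methylation score the groups overlapped for every list, with 0.579 and 0.601 against 0.586 and 0.578 for the myeloid one. Over gene bodies 21 members of the myeloid list were tested, with 0 higher and 0 lower at an unadjusted p under 0.05. Of that list 15 promoters were tested, 5 were above 0, and 0 were higher and 2 lower at an unadjusted p under 0.05: Itgam, the integrin CD11b, with 46 and 68 against 35 and 33 reads, and Tyrobp, an adaptor of myeloid receptors, with 38 and 23 against 16 and 21. Lymphocyte markers (22 tested) had a median of -0.06 with 0 higher and 1 lower. The endothelial, stellate and duct list (12 tested) had a median of -0.13 with 0 in either direction. The part of cell mixture in the changes above was not tested.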

How the data were processed

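DNA captured with the MethylCap kit from 11 livers was sequenced on an Ion Proton, per the labels' protocols, with the libraries multiplexed over shared chips. The authors' deposited table gives read counts and a relative methylation score per 500 bp bin of mm10, computed with MEDIPS per the file headers. FastQC, Trimmomatic 0.30, SAMtools and edgeR are named in the submitters' processing notes, whereas the aligner and the rule that chose the bins were not given in the sources used here. The deposited counts were used as given, with totals of 6888589 to 8541280 reads per library, and counting intervals (95%) cover counting error only. Duplicate reads cannot be recognised in the table.

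Bins, sums within 2 kb of a start and sums over gene bodies (from the GRCm38 reference annotation) of the 4 libraries were filtered with edgeR's default filter (at least 10 reads), scaled by TMM and tested with edgeR 4.0.16's quasi-likelihood test in R 4.3.3, with Benjamini-Hochberg adjustment over all features of a level. The age change was called at an adjusted p under 0.05, without covariates. The difference between strains was the contrast of both age changes in a fit of all 11 libraries with a term for each group. CPM values use each library's total times its TMM factor over 11 libraries. Named were the first 12 bins and the first 6 promoters and gene bodies in each direction by p where the groups did not overlap, up to 3 members of each of 16 gene lists, and all promoters and bins that passed the adjusted test. Gene bodies that passed are named by locus. The comparison, members and lists were chosen with earlier results of these data known. Alternatives were other scalings, among them an offset by CpG number (capped at 30 CpGs), other filters and windows, DESeq2 1.42.0, limma 3.58.1 on the score, all 11 libraries, and each library left out. The main test of the 4 libraries was tried at each level on simulated counts, while the alternatives and the contrast between strains were not. Some named members are not reported here.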

Additional observations from a re-analysis of the deposited data

Results flagged for a closer look

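The difference between the strains was tested in the fit of all 11 libraries by edgeR's quasi-likelihood test. In 21 of the named promoters and gene bodies the age change in C57BL/6J differed from that in DBA/2J at an adjusted p under 0.05. Over all features 0.404% of gene bodies and 0.0824% of promoters did so. Of the 59 gene bodies called in C57BL/6J, 20 passed. They were picked by the C57BL/6J change that this test includes, so their number follows in part from that choice. At Tmem267 the difference was 1.83 (adjusted p = 1.6e-05): reads over the gene body rose by 0.49 in C57BL/6J and fell by 1.34 in DBA/2J, and with the CpG offset the difference was 1.52 (adjusted p = 1.7e-05). Tmem267 was the only one of the 21 with an adjusted p under 0.05 under that offset. Most of the 21 rest on single libraries: 2 kept an adjusted p under 0.05 without C57BL/6J old replicate 2, 3 without DBA/2J young replicate 2, 6 without DBA/2J young replicate 1, 12 without C57BL/6J young replicate 2, 17 without C57BL/6J old replicate 1 and 18 without C57BL/6J young replicate 1. Jak3 and Tmem267 kept it without each of these 6 in turn. DBA/2J has 1 old library, so the value there has no replicate at that age.

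The difference was 1.05 at Jak3, 1.8 at Eps8l1, 1.37 at Prdx6b, 1.47 at Fam50b, 0.61 at Cul7, 0.61 at Dhx38, 0.38 at Drosha and 0.52 at the multicopy model Gm26917. In the protocadherin locus it was 0.46 at Pcdha1, 0.47 at Pcdha2, 0.46 at Pcdha3, 0.36 at Gm42416, 0.35 at Gm37013, 0.34 at Gm37388, 0.47 at Pcdhgb1, 0.55 at Pcdhga6, 0.49 at Pcdhga5, 0.48 at Pcdhgb2 and 0.56 at Pcdhga7. These protocadherin genes share reads. At the Ugt1a1 promoter the difference was -2.09, with a change of -0.70 in C57BL/6J and 1.41 in DBA/2J. The capture of CpG-dense bins differed between young and old libraries in opposite directions in the strains. It was 1.69 and 1.21 against 1.73 and 2.07 in C57BL/6J, and 1.90 and 1.98 against 1.48 in DBA/2J. These are differences between single libraries. The C57BL/6J gap was 0.21 to 0.69 over the libraries left out, and the DBA/2J mid-age females lay at 1.46 and 1.48.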

How the results depend on the processing

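At this depth single bins carry about 14.0 reads, and with groups of 2 a call can rest on 1 library. Bins called numbered 1, and 2 with total counts alone, 3 with all 11 libraries or with age in days over 5 libraries, 6 with all 11 libraries and the CpG offset, and 0 with the CpG offset, with and without young replicate 2, no filter, DESeq2, the score, exon bins left out or all libraries but young replicate 2; leaving out 1 library gave 0 to 10. By the main test 12000 bins were higher and 14032 lower at an unadjusted p under 0.05, and by DESeq2 1761 and 2153. Promoters called numbered 6, and 3 with a 1 kb window, a minimum mean of 20 reads or all libraries but young replicate 2, 10 with total counts alone, 1 with all 11 libraries and the CpG offset, and 0 with the CpG offset, with and without young replicate 2, or DESeq2, with 0 to 73 over the libraries left out; DESeq2 had 178 higher and 110 lower at the unadjusted threshold. Gene bodies called numbered 59, and 35 with the CpG offset, 30 with that offset and without young replicate 2, 34 with all 11 libraries and the offset, 5 without exon bins and 13 to 349 over the libraries left out. DESeq2 called 30 and gave no adjusted p for 27 of the 59. Strain differences numbered 1 for bins, 10 for promoters and 88 for gene bodies, and 8, 0 and 10 with the CpG offset; over the libraries left out they ranged from 0 to 1770, 0 to 162 and 4 to 610, the highest without young replicate 1 in each case. The gap in capture over 20 CpGs was 0.21 to 0.69 over the libraries left out. When an arm was left with 1 library, that library was assumed to vary like the others. The causes were not tested. No paired analysis was possible because the replicate numbers follow accession order and pair no samples.

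Named values that changed sign are these. With the CpG offset, with 4 or all 11 libraries, Gm26917 went to -0.15 and the Hsf4 promoter to -0.13. Without exon bins the gene bodies of Pcdhgb1, Pcdhga6, Pcdhga5, Pcdhga4, Pcdhgb2, Pcdhga7, Pcdhga8, Pcdhgb5, Pcdhgb7, Pcdhgb6, Pcdhgb4 and Pcdhga9, which share their bins, all went to -0.11. The strain difference with the CpG offset was -0.09 at Pcdha1, -0.07 at Pcdha2, -0.08 at Pcdha3, -0.06 at Gm42416, -0.05 at Gm37013, -0.06 at Gm37388 and -0.31 at Gm26917. Over the libraries left out the Igfbp7 bin ran from -3.30 to 0.86 (0.88 with the CpG offset), the Igfbp7 promoter from -0.41 to 0.51 (0.44 with the offset), both highest without young replicate 2. Without that library the Edaradd promoter at 0.19, the Hsf4 promoter at -0.03, at most 0.57 over the others (-0.24 with the offset, and -0.04 in the fit of all other libraries) and, with the offset, Cdkn1c at -0.11. Without young replicate 1 the promoters of Apoe (-1.69 to 0.0 over the libraries left out), E2f2 (-1.06 to 0.14), Atp11a (-0.59 to 0.3) and Lmln (-0.49 to 0.59) were at their highest, without old replicate 1 that of Cux2 (-0.95 to 0.02), and without old replicate 2 that of Stat5a (-1.71 to 0.05), and there Edaradd was at 0.06, Lmln at 0.03 and Igfbp7 at 0.17.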

Other observations

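Bins that lie over 90% in repeats were mostly higher in old C57BL/6J livers. Over all tested bins, 46.1% of those with an unadjusted p under 0.05 were higher, and 48.0% with the CpG offset. Of the bins in repeats at that p, 644 were higher and 31 lower (95.4% higher). These were 10.2% of the tested bins in repeats, against 6.38% over all bins, and with the CpG offset 6.88% against 6.25%. With the CpG offset the split was 404 to 51 (88.8%), and with that offset and without young replicate 2 it was 292 to 82 (78.1%). In DBA/2J 15.1% of such bins were higher. Reads in repeats cannot be placed with certainty, and how the authors' alignment treated them is not given in the sources used here.

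Runs of adjoining bins with an unadjusted p under 0.05 in 1 direction were picked out after their values were seen. There were 73 runs of 3 or more bins with more reads in old livers, the longest of 6 bins, and 56 with fewer, the longest of 5. Over all 408033 tested bins 2.94% were higher and 3.44% lower at that p. How many runs these shares would give was not tested, so the numbers of runs are a description. A run in Phldb2, a protein that anchors microtubules at the cell cortex, from 45843501 to 45845000 of chromosome 16, had 14 and 10 reads in young and 56 and 72 in old livers, and 0 in the mid-age male. A run in Wnt5a, from 28509001 to 28510500 of chromosome 14, had 16 and 11 against 66 and 54 reads and 2 in the mid-age male. Its DBA/2J counterparts had 83 and 76 reads when young, 73 in the mid-age male and 112 in the old female. At Wnt5a all of these DBA/2J libraries thus lay above every C57BL/6J library. In Mapk15 a run had 21 and 43 against 87 and 122 reads and 99 in the mid-age male, and in Fam50b 111 and 88 against 204 and 250 with 238 in the mid-age male. The longest run with fewer reads lay in Cnpy3, from 46742501 to 46745000 of chromosome 17, with 63 and 74 against 25 and 16 reads and 42 in the mid-age male.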
